A study of Arabidopsis thaliana with 9 samples.

Results

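The SWEET genes of Arabidopsis thaliana encode membrane proteins through which sugars pass along their concentration gradient. The genes described here were SWEET2, SWEET11 and SAG29 (SWEET15, locus AT5G13170), together with every other gene whose symbol begins with SWEET and whose array row was paired with exactly 1 gene. That rule gave 16 of the 16550 genes tested. Of these, 15 encode SWEET transporters. The remaining member, SWEETIE, matched by its symbol alone and encodes a large protein linked to carbohydrate metabolism and the onset of senescence, not a SWEET transporter.

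RNA came from detached leaves of ecotype Col-0, aged 30 days, with 1 Affymetrix array per sample and 3 arrays per group. The groups were leaves kept for 48 h in MS medium with 50 µM BrvC, leaves kept for 6 h in the same medium, and control leaves given 0.05% DMSO in MS medium. BrvC belongs to the brevicompanines, which are alkaloids of fungal origin. All leaves were held in the dark, and a sample pooled 10 to 15 leaves. How long the single control group stayed in the dark is not stated, so BrvC and the time in the dark cannot be told apart in any difference from control, nor in one between 48 h and 6 h. The values are RMA log2 signals, on which a difference of 1 is a 2-fold change and differences between low signals are compressed. A gene is called higher or lower when its adjusted p in limma was under 0.05 (Benjamini-Hochberg over all 16550 genes).

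SWEET proteins fall into 4 clades. Clade I and clade II members move mainly hexoses, clade III members move mainly sucrose across the plasma membrane, and clade IV members sit in the vacuole membrane. In leaves the family is best known for releasing sucrose from phloem parenchyma cells into the cell wall space, from which proton-coupled symporters load it into the phloem. Members in the vacuole membrane let sugars pass in and out of the vacuole, where leaves store part of their hexoses and sucrose.

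Of the 17 Arabidopsis SWEET loci, 16 had a row of 1 gene. SWEET12, the partner of SWEET11 in phloem loading, had none and was not analysed here. SWEET5 is listed as AtVEX1, so its symbol kept it outside the rule. It lay between 2.15 and 2.63 on all 9 arrays and was not called in any comparison (largest difference 0.05). Each member had a single row. A filter that keeps genes with a mean at or above that of the median gene (3.85 on the log2 scale) was passed by 6 of the 16 members, namely SWEET1, SWEET2, SWEET11, SWEET16, SWEET17 and SWEETIE. SWEET11 and SWEET12, and likewise SWEET13 and SWEET14, are close copies, and rows of such genes can share signal between copies.

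Array medians over all rows lay between 4.00 and 4.10 at 48 h, 4.17 and 4.25 at 6 h and 3.80 and 3.93 in control, and the lowest correlation between arrays of a group was 0.960. Of 11 leaf mesophyll markers 3 were measured, the photosynthesis genes RCA, PSAE-1 and PRK. At 48 h PRK averaged 4.18, near the level of the median gene (3.85). All 3 were called lower at 48 h than in control (differences of -1.42, -1.38 and -2.11), where 5.22% of all genes were called lower. At 6 h RCA alone of these was called, at -0.58, where 13.2% of all genes were called lower. RCA lost this call without 6 h replicates 1 or 2 or control replicates 1 or 2 (adjusted p from 0.0580 to 0.108). The call was also lost after renewed quantile normalization (-0.36, 0.191) and with a replicate block in both groups alone (0.0646). The guard cell regulator FAMA, the measured member of 6 guard cell markers, averaged 6.32 at 48 h, 6.90 at 6 h and 5.70 in control. FAMA was called higher at both times, where 14.2% of all genes were called higher at 6 h and 5.43% at 48 h. At 48 h its call was lost without any 1 of 7 arrays (all but 6 h replicate 3 and control replicate 3, adjusted p from 0.0519 to 0.111). The 2 measured of 4 root markers and the measured member of 5 pollen and seed markers were not called in any comparison. From 10.6% to 27.4% of all genes were called in a comparison. None of 5 phloem markers had a row of 1 gene. In bulk leaves, fewer cells of a type and less RNA per cell cannot be told apart, and the part of these shifts in the SWEET results was not tested.

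SWEET2 had the largest change of the family. This clade I protein sits in the vacuole membrane and is best studied in roots, where it limits the loss of sugar to the soil. Its log2 signal was 8.80, 9.30 and 10.02 at 48 h, 5.38, 5.35 and 5.79 at 6 h and 8.82, 9.32 and 10.10 in control. The 6 h arrays lay wholly below the arrays of both other groups, which covered the same range. Against control, SWEET2 fell at 6 h by 3.91 on the log2 scale (SE 0.33, limma adjusted p = 1.75e-06), a 15.0-fold drop. A difference as low or lower was found for 0.103% of all genes tested. At 48 h it differed from control by -0.04, with a 95% interval from -0.75 to 0.67. With arrays of the same replicate number as blocks, which the data pair in these groups, the interval ran from -0.38 to 0.30. It was higher at 48 h than at 6 h by 3.87 (SE 0.33, limma adjusted p = 3.00e-06).

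The other clade I members moved less. SWEET1, a plasma membrane carrier of glucose, read 4.47, 4.67 and 3.90 at 48 h, 5.17, 5.30 and 5.42 at 6 h and 4.43, 5.36 and 5.40 in control. Its 48 h arrays lay below all 6 h arrays, whereas control replicate 1 fell among the 48 h values. SWEET1 was lower at 48 h than at 6 h by 0.95 (SE 0.27, limma adjusted p = 0.0218). SWEET1 lost this call when 48 h replicate 3 (-0.72, adjusted p = 0.0984), 6 h replicate 2 (-0.95, 0.0642) or 6 h replicate 3 (-0.89, 0.0799) was left out, and over all rows (0.0597). Against control SWEET1 had -0.72 at 48 h (adjusted p = 0.111), and -1.04 with a call (adjusted p = 0.0167) when control replicate 1 was left out. SWEET3 stayed between 1.72 and 1.94 on every array and was not called.

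In clade II, SWEET4 was the member called at 48 h. It carries hexoses and is active in leaf veins. Its log2 signal was 4.24, 4.89 and 4.32 at 48 h, 3.15, 3.52 and 3.67 at 6 h and 3.49, 3.67 and 3.52 in control. All 48 h arrays lay above all others, and the 6 h arrays overlapped control. SWEET4 rose at 48 h against control by 0.92 (SE 0.21, limma adjusted p = 0.0109) and against 6 h by 1.04 (SE 0.21, limma adjusted p = 0.00268). Without 48 h replicate 2 its difference from control was 0.72 and the call was lost (adjusted p = 0.0505).

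SWEET7 passed the test at 6 h against control by a narrow margin (-0.55, SE 0.19, limma adjusted p = 0.0447). It read 1.69, 1.67 and 1.67 at 48 h, 1.41, 1.28 and 1.67 at 6 h and 2.29, 2.06 and 1.67 in control, so that the groups overlapped. On 4 arrays from all 3 groups its value was identical to 9 decimals. Leaving out any 1 of 7 arrays (all but 6 h replicate 3 and control replicate 3) ended the call, with differences from -0.72 to -0.41 over the 9 arrays left out in turn, and so did fits to all rows (adjusted p = 0.0628) and to both groups alone (0.0735), and renewed quantile normalization (-0.41, 0.103). SWEET6 and SWEET8, also called RPG1 and needed for the pollen wall, ranged from 1.69 to 2.45 over both genes and were not called.

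**Figure D1:**
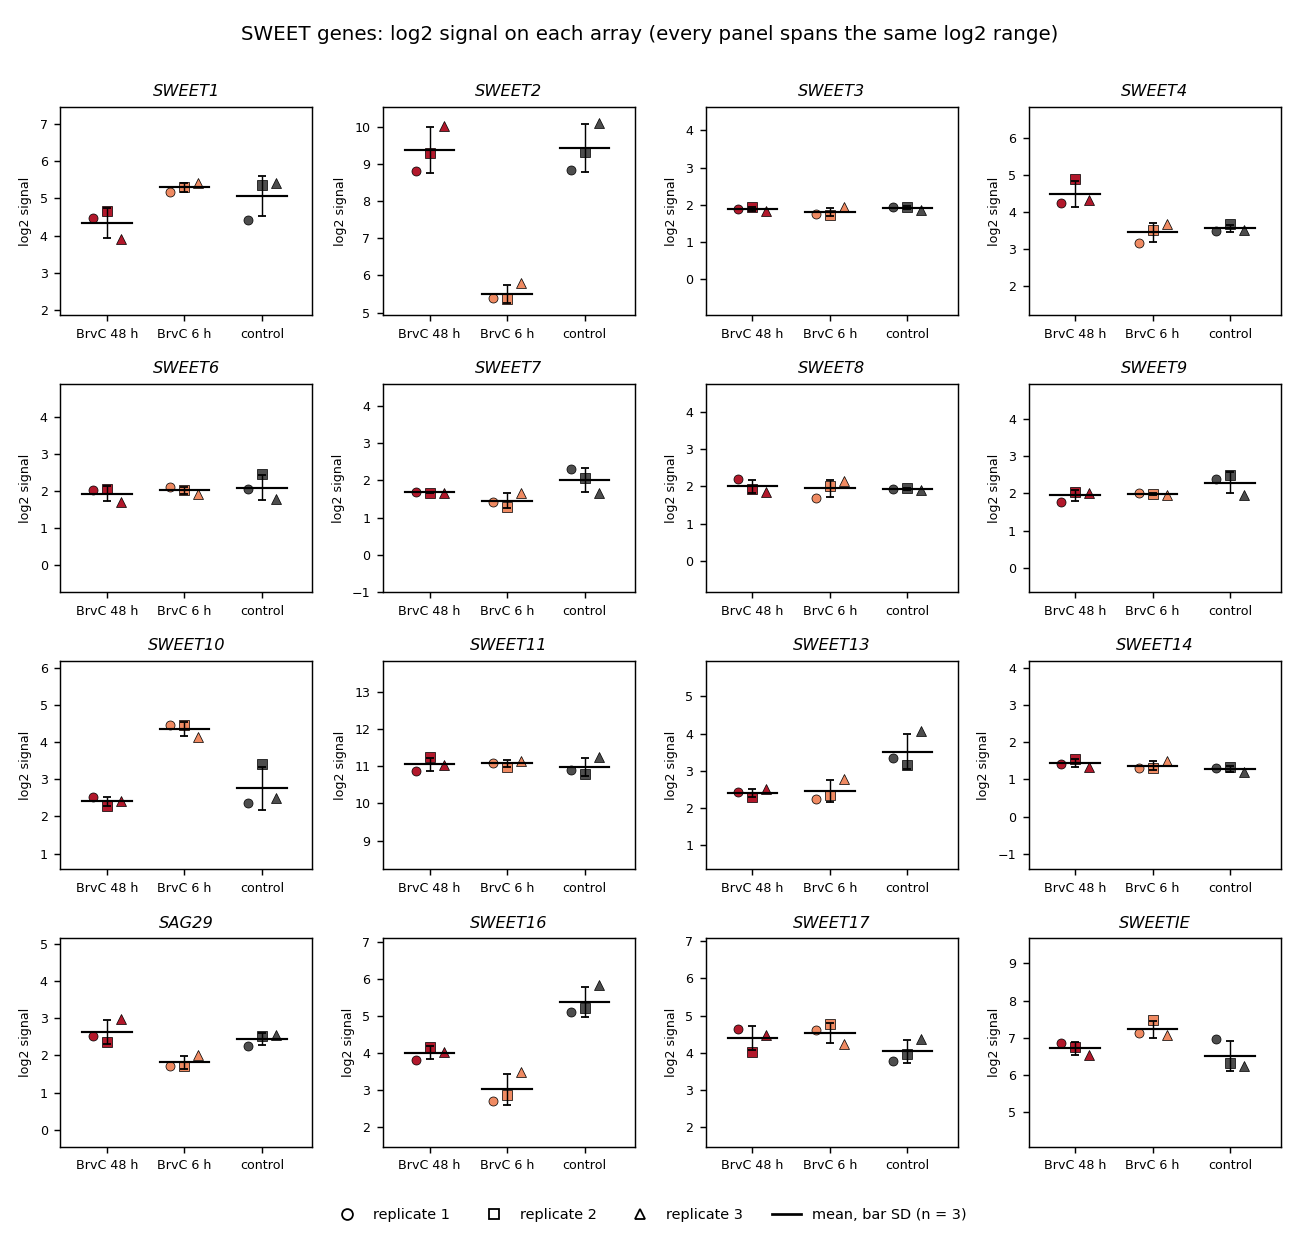
Log2 signal of the 16 SWEET genes on each array (y axis, the same span in every panel) for leaves with BrvC at 48 h, BrvC at 6 h and control. Points are arrays, lines are means and bars are SD (n = 3). SWEET2 sits between 5.35 and 5.79 at 6 h and above 8.7 elsewhere, SWEET10 is high at 6 h, SWEET16 is low at both times, and SWEET11 stays near 11.

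Clade III held genes that moved in opposite directions. SWEET10, a sucrose carrier known from the shoot apex at the transition to flowering, read 2.52, 2.29 and 2.41 at 48 h, 4.45, 4.46 and 4.13 at 6 h and 2.36, 3.41 and 2.49 in control. All 6 h arrays lay above all others, and control replicate 2 lay apart from the other controls. SWEET10 rose at 6 h against control by 1.59 (SE 0.25, limma adjusted p = 0.000262). The signals at 48 h and in control lay below that of the median gene, where log2 differences are compressed. It was lower at 48 h than at 6 h by 1.94 (SE 0.25, limma adjusted p = 8.12e-05) and had -0.35 against control at 48 h (95% interval -0.88 to 0.18).

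SWEET13 lies next to SWEET10, with 0 genes between them in RefSeq's Arabidopsis table (TAIR10.1). It carries sucrose and, with SWEET14, gibberellin in anthers. SWEET13 read 2.43, 2.29 and 2.51 at 48 h, 2.23, 2.36 and 2.79 at 6 h and 3.35, 3.14 and 4.06 in control. All treated arrays lay below all control arrays. It fell by 1.06 at 6 h (SE 0.24, limma adjusted p = 0.00405) and by 1.11 at 48 h (SE 0.24, limma adjusted p = 0.00803), and the treated groups differed by -0.05 (95% interval -0.56 to 0.46). At 6 h these neighbours thus passed the test in opposite directions.

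SWEET11, the plasma membrane carrier that releases sucrose from phloem parenchyma, read 10.87, 11.24 and 11.03 at 48 h, 11.10, 10.98 and 11.14 at 6 h and 10.89, 10.80 and 11.25 in control. The groups overlapped fully. SWEET11 differed from control by 0.10 at 6 h (95% interval -0.29 to 0.48) and by 0.07 at 48 h (95% interval -0.31 to 0.45), so that the data allow any change within those bounds. Between 48 h and 6 h it had -0.03 (95% interval -0.41 to 0.36, limma adjusted p = 0.951).

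SAG29, the SWEET15 sucrose carrier of senescing leaves and developing seeds, read 2.53, 2.36 and 2.99 at 48 h, 1.71, 1.73 and 2.0 at 6 h and 2.25, 2.52 and 2.56 in control. Its 6 h arrays lay below all others, on a low signal throughout. It fell at 6 h against control by 0.63 (SE 0.20, limma adjusted p = 0.0277), and this call was lost without any 1 of 4 arrays, namely 6 h replicates 1 (adjusted p = 0.101) and 2 (0.0923) and control replicates 2 (0.0713) and 3 (0.0675), and after renewed quantile normalization (-0.49, 0.103). SAG29 was higher at 48 h than at 6 h by 0.81 (SE 0.20, limma adjusted p = 0.00895), a call kept without each array in turn. At 48 h it had 0.18 against control (95% interval -0.24 to 0.61). None of the 3 measured entries in a list of 14 leaf senescence genes was called in any comparison. Of all genes, 27.4% were called at 6 h and 10.6% at 48 h against control, and 20.3% at 48 h against 6 h. SAG101 averaged 5.89 at 48 h, 5.87 at 6 h and 5.53 in control, and both treated groups lay wholly above control. Its differences from control were 0.34 at 6 h (limma adjusted p = 0.115) and 0.36 at 48 h (0.161). WRKY6 and AT3G10980 differed from control by -0.35 to 0.24. AT3G10980 was listed as SAG20, a name that its symbol here does not give. SWEET9 of nectaries and SWEET14 stayed between 1.19 and 2.51 and were not called.

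Clade IV has SWEET16 and SWEET17, both in the vacuole membrane. SWEET16, which carries glucose, fructose and sucrose, read 3.82, 4.17 and 4.03 at 48 h, 2.72, 2.86 and 3.50 at 6 h and 5.10, 5.20 and 5.84 in control. The 3 groups were fully separated, with control highest and 6 h lowest. SWEET16 fell at 6 h by 2.36 (SE 0.24, limma adjusted p = 8.95e-06) and at 48 h by 1.38 (SE 0.24, limma adjusted p = 0.00242). It was higher at 48 h than at 6 h by 0.98 (SE 0.24, limma adjusted p = 0.0107), a call lost without 6 h replicate 1 (0.83, adjusted p = 0.0588) or 6 h replicate 2 (0.90, 0.0508). SWEET17, which carries fructose, read 4.65, 4.03 and 4.49 at 48 h, 4.62, 4.77 and 4.24 at 6 h and 3.79, 3.96 and 4.38 in control, with overlapping groups. It was not called, with 0.50 at 6 h against control (95% interval 0.02 to 0.98, limma adjusted p = 0.119), but was called without control replicate 3 (0.67, adjusted p = 0.0427) and with array weights (0.63, 0.0417).

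SWEETIE read 6.86, 6.76 and 6.53 at 48 h, 7.13, 7.49 and 7.06 at 6 h and 6.97, 6.32 and 6.25 in control. Its 6 h arrays lay above all others. It rose at 6 h against control by 0.72 (SE 0.21, limma adjusted p = 0.0233), and it lost this call when 6 h replicate 2 (0.59, adjusted p = 0.107), control replicate 2 (0.62, 0.0801) or control replicate 3 (0.59, 0.0730) was left out. At 48 h it had 0.20 against control and was not called.

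At 6 h against control, 7 of 16 members were called (43.8%), 5 lower and 2 higher, where 27.4% of all genes tested were called (13.2% lower and 14.2% higher). The arrays of the groups did not overlap for 6 members (37.5%) and for 40.3% of all genes. Among the 15 transporters the count was 6, with SWEET10 the 1 higher gene. The members' median difference was -0.09, beside -0.10 over all genes. The count was 4 without 6 h replicate 2 and 4 without control replicate 2 (25%), where 22.1% and 24.5% of all genes were called, so that the share of members was then near that of all genes. The calls of SWEET2, SWEET10, SWEET13 and SWEET16 held without each array in turn.

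At 48 h against control, 3 of 16 members were called (18.8%), SWEET13 and SWEET16 lower and SWEET4 higher, where 10.6% of all genes were called (5.22% lower and 5.43% higher). The groups did not overlap for 4 members (25%) and for 25.1% of all genes. The members' median difference was -0.04, beside -0.06 over all genes. At 48 h against 6 h, 6 of 16 were called (37.5%), where 20.3% of all genes were called (9.62% higher and 10.7% lower). The groups did not overlap for 7 members (43.8%) and for 37.3% of all genes. SWEET2, SWEET4, SAG29 and SWEET16 were higher at 48 h and SWEET1 and SWEET10 were lower, and the median difference was 0.01, beside 0.02 over all genes. SWEET3, SWEET6, SWEET8, SWEET9, SWEET11, SWEET14 and SWEET17 were called in none of the 3 comparisons, with largest differences from 0.07 to 0.50.

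**Figure D2:**
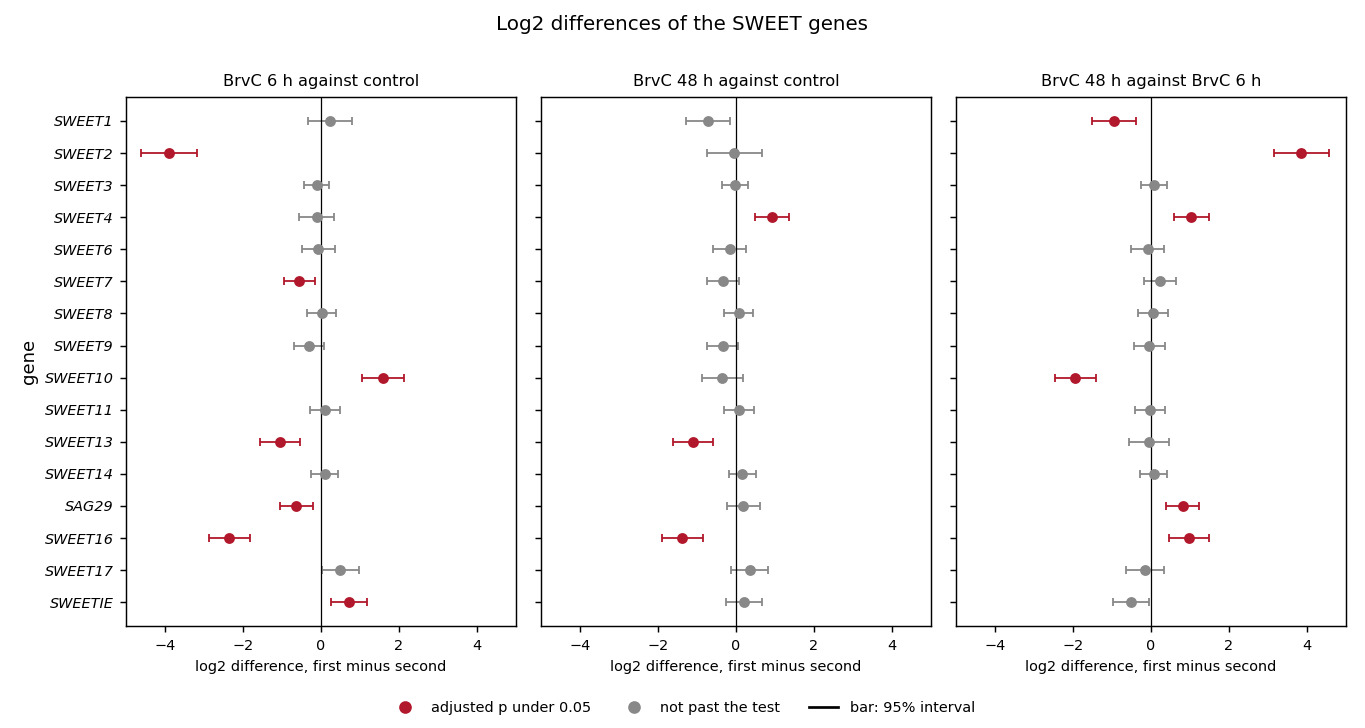
Log2 difference of each SWEET gene (x axis, first group minus second) with its 95% interval in 3 comparisons, red where the adjusted p was under 0.05. SWEET2 has -3.91 at 6 h against control, -0.04 at 48 h against control and 3.87 at 48 h against 6 h.

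**Figure D3:**
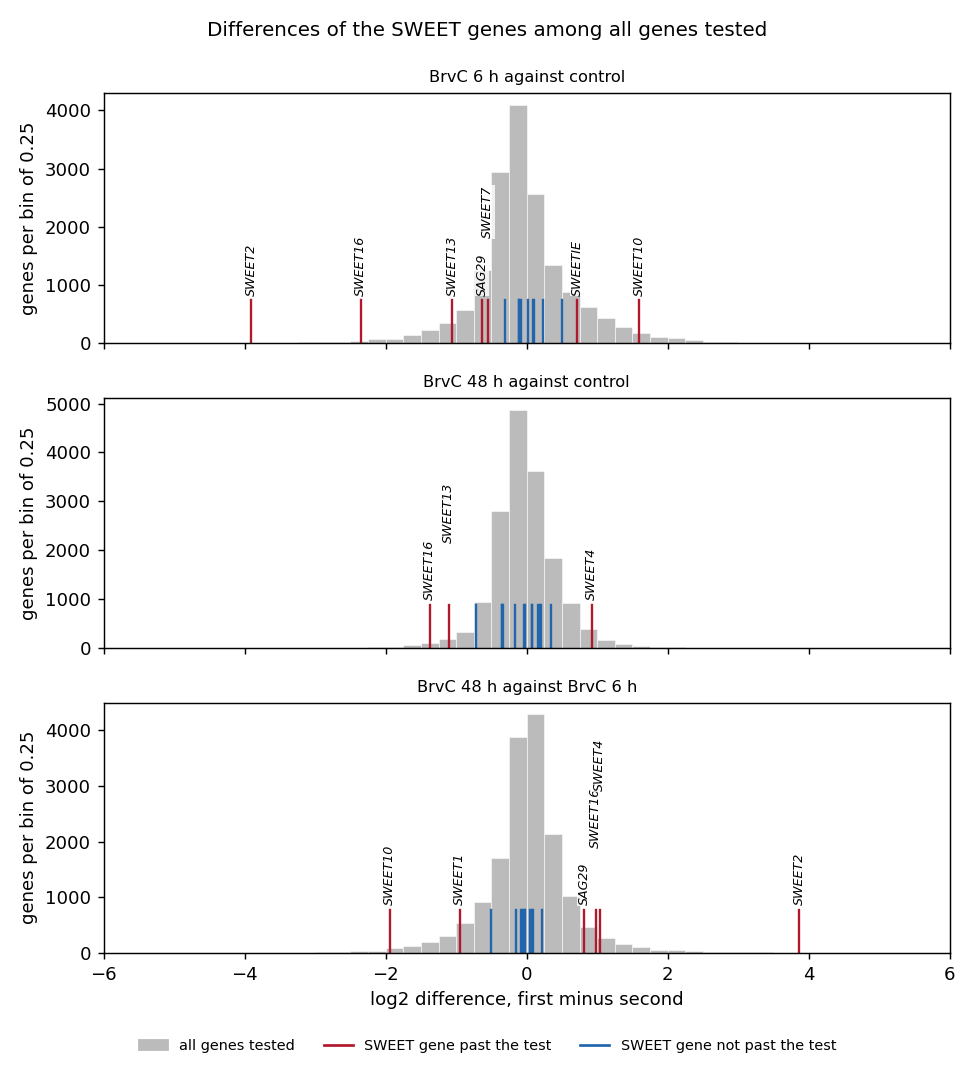
Distribution of log2 differences (x axis) over the 16550 genes tested (y axis, genes per bin), with the SWEET genes as lines, red where called. SWEET2 and SWEET16 lie in the lower tail at 6 h against control, and SWEET10 in the upper part (1.59).

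The order of the groups differed from member to member. SWEET16 had 3 separate levels, with control above 48 h and 48 h above 6 h. SWEET2 and SAG29 had 48 h and control together above 6 h, SWEET10 had 6 h above 48 h and control together, SWEET4 had 48 h above 6 h and control together, and SWEET13 had both treated groups together below control. In these orders, groups given together did not differ past the test. SWEET1 had 48 h below 6 h, SWEETIE had 6 h above control and SWEET7 had 6 h below control, and in these 3 genes the remaining group did not differ past the test from either of them.

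The genes most like a member were those with the smallest mean absolute difference over the 9 arrays, after each gene was centred on its own mean, out of 1803 other genes with a symbol. For SWEET2 these were GH3.17, an enzyme that joins amino acids to auxin (0.337 log2 units), the beta-glucosidase BGLU46 (0.470) and the acetyltransferase gene CHAT (0.513). GH3.17 averaged 6.32 at 48 h, 3.02 at 6 h and 6.88 in control. For SWEET16 they were the carboxypeptidase-like scpl48 (0.157), the lipase DLAH (0.242) and BGLU41 (0.248), and for scpl48 the means were 9.08 at 48 h, 7.80 at 6 h and 10.21 in control. For SWEET10 they were the NDH complex subunit NdhN (0.195), DPE1, a plastid enzyme of starch breakdown (0.207), and the plastid RNA polymerase gene rpoC2 (0.211). DPE1 averaged 4.40 at 48 h, 6.30 at 6 h and 4.63 in control. For SWEET4 they were the transcription factor LBD16 (0.118), the isocitrate dehydrogenase ICDH (0.168) and ATSPS4F (0.174), a sucrose-phosphate synthase. For SWEET13 they were the tetraspanin TET10 (0.188), ECS1 (0.190) and the cytochrome P450 CYP71B26 (0.190). For SAG29 they were the exocyst subunit SEC3A (0.117), DDL (0.133) and ELC-Like (0.140), and for SWEETIE ATSYTF (0.092), the nuclear pore gene NUP155 (0.096) and SPY (0.133). For SWEET7 they were OTP85 (0.091), GH3.1 (0.099) and NGA4 (0.103). This measure is not scaled, so members of little change were bound to lie near genes of little change. SWEET11, with TBL18 (0.059), USP (0.082) and RD2 (0.100), was such a member. Within the family the member nearest to SWEET2 was SWEET16, at 1.04 log2 units. The nearest pair was SWEET3 and SWEET14, at 0.090, both of little change and low signal.

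**Figure D4:**
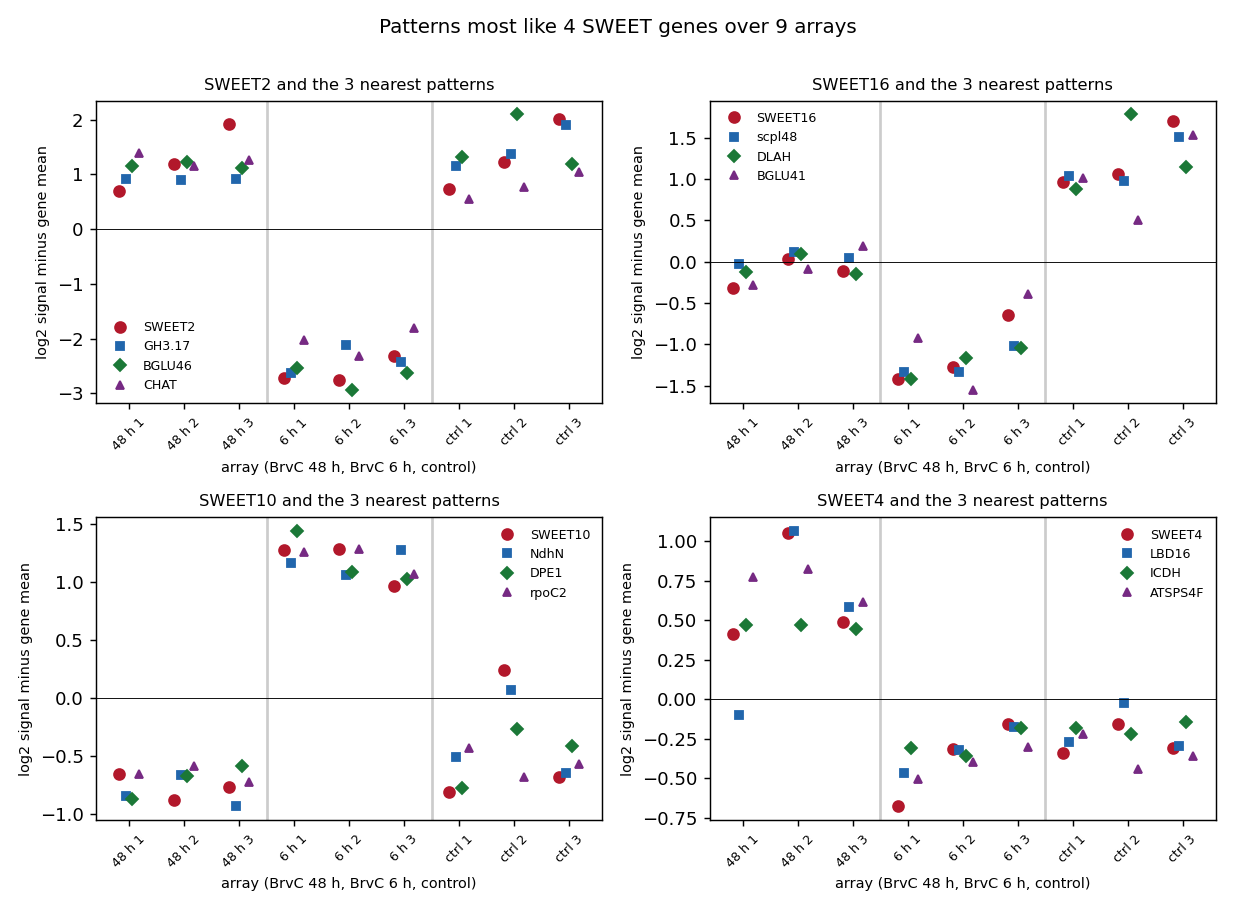
Log2 signal minus each gene's mean (y axis) on each of the 9 arrays for SWEET2, SWEET16, SWEET10 and SWEET4 (red circles) and the 3 genes with the nearest pattern. SWEET2 and GH3.17 have values from -2.75 to -2.12 at 6 h and positive values on all other arrays.

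Sugar transporters outside the family were measured in part. None of 9 sucrose-proton symporters had a row of 1 gene. Of 14 hexose-proton symporters 4 were measured. Against control STP3 (AT5G61520) alone was called, higher at 6 h, where 14.2% of all genes were called higher. STP3 read 4.29, 4.57 and 4.10 at 48 h, 5.16, 4.38 and 4.82 at 6 h and 3.99, 3.36 and 3.37 in control, and both treated groups lay wholly above control. It rose at 6 h by 1.21 (SE 0.24, limma adjusted p = 0.00168) and had 0.75 at 48 h (adjusted p = 0.0646). The 48 h difference of STP3 was called with the replicate number as a block (limma adjusted p = 0.0388). It was also called without control replicate 1 (0.95, 0.0298) and without low genes (0.0431). Without low genes, 22.3% of genes were called at 48 h against control, beside 10.6% of all genes. STP3 averaged 3.57 in control, below the median gene (3.85), and 4.32 at 48 h and 4.78 at 6 h. Its treated arrays thus carried it past the low filter, so the call without low genes is no further evidence of a rise.

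Of 16 vacuolar and other monosaccharide transporters 6 were measured, 3 of which fell at 6 h and 1 at 48 h, where 13.2% and 5.22% of all genes were called lower. The list's median differences were -0.46 at 6 h and -0.20 at 48 h, beside -0.10 and -0.06 over all genes. SFP2, a sugar porter of the ERD6-like group, read 5.69, 5.59 and 5.57 at 48 h, 4.24, 4.63 and 4.42 at 6 h and 6.25, 6.42 and 6.81 in control. Like SWEET16 it had 3 separate groups, and it fell by 2.06 at 6 h (SE 0.19, limma adjusted p = 3.02e-06) and by 0.88 at 48 h (SE 0.19, limma adjusted p = 0.00803). Its close copy SFP1, whose row may share signal with it, read 10.15, 9.89 and 9.82 at 48 h, 8.82, 8.84 and 8.46 at 6 h and 10.04, 10.08 and 9.76 in control. SFP1 fell at 6 h by 1.25 (SE 0.18, limma adjusted p = 0.00016) and had -0.01 at 48 h (95% interval -0.40 to 0.38). The vacuole membrane carrier TMT1, which moves sugars into the vacuole, read 11.18, 11.07 and 11.23 at 48 h, 11.02, 11.11 and 10.87 at 6 h and 11.73, 11.55 and 11.64 in control. TMT1 fell at 6 h by 0.64 (SE 0.16, limma adjusted p = 0.00757) and had -0.48 at 48 h (adjusted p = 0.0711), and at 48 h it was called without low genes (0.0337) and with an intensity trend (0.0243).

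Of 16 genes listed by name as invertases or sucrose synthases, 2 were measured. Which sugar the product of cwINV6 splits was not tested. Against control, 1 was called lower at 6 h and 1 was called higher at 48 h. Of all genes, 13.2% were called lower at 6 h and 5.43% higher at 48 h. BFRUCT3 (AT1G62660), an invertase of the vacuole, read 8.71, 9.09 and 8.93 at 48 h, 6.44, 6.19 and 6.00 at 6 h and 9.06, 9.64 and 9.38 in control. The 6 h arrays lay below all others, as those of SWEET2 did. BFRUCT3 fell at 6 h by 3.15 (SE 0.20, limma adjusted p = 1.55e-07) and had -0.44 at 48 h (adjusted p = 0.190). The gene cwINV6, named as a cell wall invertase, averaged 8.38 ± 0.24 at 48 h, 6.98 ± 0.13 at 6 h and 7.20 ± 0.54 in control (SD, n = 3 each), and rose at 48 h by 1.18 (SE 0.24, limma adjusted p = 0.00665). Of 7 sucrose synthesis genes the measured member was ATSPS4F, with 9.08, 9.12 and 8.92 at 48 h, 7.79, 7.91 and 8.00 at 6 h and 8.08, 7.86 and 7.94 in control. It rose at 48 h by 1.08 (SE 0.16, limma adjusted p = 0.000703), with the 48 h arrays above all others as for SWEET4. Of 16 dark and sugar starvation genes the measured member, BZIP53, had -0.41 at 6 h (adjusted p = 0.131) and 0.03 at 48 h and was not called.

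**Figure D5:**
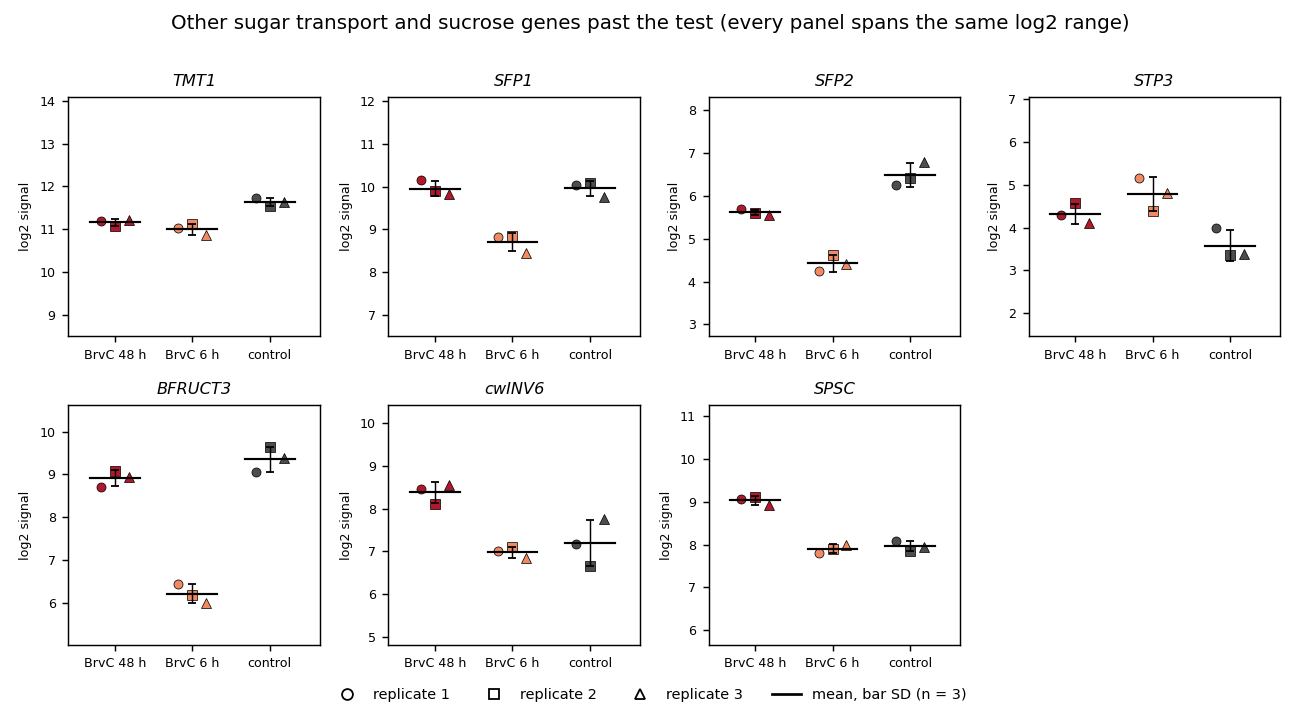
Log2 signal on each array (y axis, the same span in every panel) of the 7 genes from other sugar lists called against control. SPSC is the list name of ATSPS4F. Points are arrays, lines are means and bars are SD (n = 3), and BFRUCT3 is lowest at 6 h (6.00 to 6.44).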

How the data were processed

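The authors deposited log2 signals for 9 arrays. Per the submitters' processing notes they used oligo, RMA and limma (no versions given). Build and array annotation are not given in the sources used here, so no coordinates are printed. Of 38408 rows, 16722 were paired with 1 gene, 759 with several and 20927 with none listed. Each gene kept its row of highest mean (172 rows of 146 genes were set aside), giving 16550 genes, unfiltered. RefSeq's TAIR10.1 table supplied current symbols and lacked 139 genes.

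All arrays entered a single limma 3.58.1 fit of group means (R 4.3.3, lmFit and eBayes, 6 residual and 7.04 prior degrees of freedom). The labels call replicates biological without naming plants, so p-values measure the spread between these samples, and 3 arrays per group limit the precision. Members and lists were chosen with earlier results of these data known. The naming rule took all members and, of each other list, at most the 3 members with the largest change among those called against control, and the 3 genes most like each member. FAMA has the symbol FMA in RefSeq. Named outside that rule, after their values were seen, were SAG101, WRKY6, AT3G10980 and BZIP53, none of which was called.

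Deviations from group means correlated between same-numbered arrays at 0.302, 0.242 and 0.539 for 48 h and control, which pairs these by the rule fixed for it, at 0.034, -0.032 and 0.012 for 6 h and control, and at 0.102, -0.051 and -0.012 for 48 h and 6 h. Alternatives were leaving out each array, a threshold of 0.01, a replicate block, array weights, both groups alone, a robust intensity trend, quantile normalization, median centring, no low genes, and every row.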

Additional observations from a re-analysis of the deposited data

Results flagged for a closer look

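For 6 members the differences from control at 48 h and at 6 h were themselves different by limma's test of 48 h against 6 h (Benjamini-Hochberg over all genes, 20.3% of which were called). Both differences share the control arrays. The difference between the times, 48 h minus 6 h, was 3.87 for SWEET2 (-0.04 at 48 h and -3.91 at 6 h against control) and -1.94 for SWEET10 (-0.35 and 1.59). It was 1.04 for SWEET4 (0.92 and -0.11), 0.98 for SWEET16 (-1.38 and -2.36), -0.95 for SWEET1 (-0.72 and 0.23) and 0.81 for SAG29 (0.18 and -0.63).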

How the results depend on the processing

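Without low genes 6 members remained to be tested, of which 3 were called at 6 h against control, 1 at 48 h against control and 3 at 48 h against 6 h, where 48.5%, 22.3% and 38.4% of the 8275 genes left were called. At a threshold of 0.01 the 6 h count was 4 (25%), beside 3081 of all genes (18.6%), and SWEET7, SAG29 (-0.63) and SWEETIE were not called. At 48 h against control SWEET13 and SWEET16 were called, beside 921 of all genes (5.56%, 1762 at 0.05). SWEET4 was not called there (limma adjusted p = 0.0109). At 48 h against 6 h 4 members were called, beside 2083 of all genes (12.6%, 3356 at 0.05). SWEET1 (limma adjusted p = 0.0218) and SWEET16 (0.0107) were not. Renewed quantile normalization gave SAG29 -0.49 at 6 h against control (limma adjusted p = 0.103). It moved the uncalled 6 h difference of SWEET11 from 0.10 to 0.31 (limma adjusted p = 0.210). It also turned the sign of uncalled differences of SWEET3 (0.028 at 6 h, 0.095 at 48 h), SWEET6 (0.062 at 6 h), ATSPS4F (0.076 at 6 h) and SFP1 (0.012 at 48 h). Median centring turned SWEET8 at 6 h (-0.0089), SFP1 at 48 h (0.000788) and SWEET11 at 48 h against 6 h (0.0085), and array weights turned SWEET8 at 6 h (-0.038), SWEET2 at 48 h (0.032) and SWEET13 at 48 h against 6 h (0.013). The cause of these shifts was not tested.

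Leaving out each array in turn gave 4 to 7 members called at 6 h against control, 2 to 4 at 48 h against control and 4 to 6 at 48 h against 6 h, where 21.6% to 28.1%, 7.59% to 12.9% and 14.9% to 22.8% of all genes were called. For SWEET2 the differences ran from -4.20 to -3.56, from -0.37 to 0.30 and from 3.54 to 4.15 in these comparisons, for SWEET11 from 0.01 to 0.23, from -0.026 to 0.20 and from -0.12 to 0.061, and for SAG29 from -0.73 to -0.57, from 0.00357 to 0.32 and from 0.63 to 0.95. Uncalled differences that crossed 0 at 6 h against control were those of SWEET1 (-0.089 to 0.40), SWEET4 (-0.23 to 0.033), SWEET6 (-0.23 to 0.10), SWEET8 (-0.076 to 0.15) and cwINV6 (-0.48 to 0.062). At 48 h against control they were those of SWEET2 (-0.37 to 0.30), SWEET6 (-0.32 to 0.017), SWEET8 (-0.037 to 0.14), SWEET11 (-0.026 to 0.20) and SFP1 (-0.11 to 0.059). At 48 h against 6 h they were those of SWEET6 (-0.15 to 0.026), SWEET8 (-0.078 to 0.15), SWEET9 (-0.092 to 0.047), SWEET11 (-0.12 to 0.061), SWEET13 (-0.17 to 0.11) and SWEET17 (-0.30 to 0.029).

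When replicate numbers entered as a block in a fit to 48 h and control alone, 3 of 16 members were called (18.8%), and SWEET2 had -0.04. In that fit 14% of all genes were called, beside 10.6% in the fit of all arrays without a block, where 3 members were called as well. Of the calls at 48 h against control given here, the block changed that of STP3 and no other. No number of reads lies behind the signals, and most members had low signals, at which RMA compresses differences.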

Other observations

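SWEET2 had the largest SD of the 16 members at 48 h and in control, with an SD of 0.61 at 48 h, 0.24 at 6 h and 0.64 in control (n = 3 each). In the 48 h and control groups this spread followed the replicate number. Replicate 1 read 8.80 at 48 h and 8.82 in control, replicate 2 read 9.30 and 9.32, and replicate 3 read 10.02 and 10.10, so that same-numbered arrays differed by -0.02, -0.02 and -0.08. The labels do not say what arrays of 1 number share. With the number as a block, SWEET2 was not called at 48 h against control.

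SWEET7 had the value 1.67, identical to 9 decimals, on 48 h replicates 2 and 3, 6 h replicate 3 and control replicate 3. SWEET4 and SWEET14 each had an identical value on 2 arrays of different groups, and 1267 genes (7.66% of those tested) had the same value on 2 or more arrays.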
